A study of Mus musculus with 19 samples.

Results

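The genes of voltage-gated and potassium ion channels were taken as all probe sets whose annotated gene symbol begins with Kcn or Cacn, or with Scn and a digit. They were 119 of the 18193 genes named on the array, with 252 of its 45101 probe sets. A gene was read from its brightest tested probe set, the one with the highest mean log2 intensity over all samples, and 115 of the 119 genes had a tested probe set (a value over 20 in at least 1 sample). Kcne2, Kcnh5, Kcnj2 and Kcnmb4os1 had none. The 119 genes comprised 31 alpha subunits of voltage-gated potassium (Kv) channels and 12 Kv accessory subunits. There were 15 inward rectifiers, 12 two-pore domain channels and 11 genes of calcium- and sodium-activated potassium channels. The calcium channels gave 9 pore-forming alpha1 and 15 auxiliary subunits, the sodium channels 8 alpha and 3 beta subunits, and 3 symbols met the rule only by their first letters.

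RNA was measured on 19 MOE430 2.0 arrays from C57BL/6 mouse embryos at embryonic day 16. The groups were the urogenital sinus epithelium (UGE, 6 samples) and the surrounding urogenital sinus mesenchyme (UGM, 5 samples), the tissue pair from which the prostate forms, and back skin split into epidermis (4 samples) and dermis (4 samples). UGE and UGM were parted with trypsin, whereas skin was held overnight in dispase before its layers were pulled apart, so site and separation method cannot be told apart. No group carried a mutation, transgene or drug, and each sample was a pool of embryos described by its submitters as a biological replicate. Skin and urogenital sinus were taken from common embryos, and pools of different groups may therefore share animals.

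Ion channels are pores in the cell membrane that open to voltage, calcium, pH, stretch or nucleotides. Voltage-gated sodium and calcium channels carry the inward currents of excitable cells, and voltage-gated potassium channels end them. Two-pore domain and inward rectifier potassium channels set the resting potential of excitable and epithelial cells alike, while auxiliary subunits alter how the pores traffic and gate. At this stage of development the urogenital sinus and the skin both hold epithelium over a mesenchyme that is receiving nerves, vessels and muscle.

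Values are log2 intensities, and a lower quartile of all probe sets of an array lay between 4.70 and 4.92, so levels in that range or under it were near the bottom of the scale. A gene is called here when limma gave a Benjamini-Hochberg adjusted p under 0.01 over all 41549 tested probe sets together with a fold change over 2. Levels are compared only within a gene, since probe sets differ in brightness. Samples of 1 group correlated at 0.960 to 0.997 over all probe sets other than controls. The epithelial marker list had its lowest median in UGM (6.35 to 8.18) and its highest in UGE and epidermis (12.1 to 12.6), but lay at 9.11 to 10.9 in dermis. The mesenchymal list lay at 12.4 to 12.8 in UGM and dermis and at 9.51 to 10.7 in epidermis, and within UGE it ran from 6.28 to 10.6, being high in replicates 2 and 3. Without those 2 UGE samples 40 channel genes were called between UGE and UGM, against 39 with them. In bulk tissue, fewer cells of a type and less RNA per cell cannot be told apart.

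The start sites of 4 channel genes that carried the main patterns are given as 250 bases before to 50 bases after the start of the RefSeq gene (build GRCm38.p6), 5′ to 3′. Kcnj15 was higher in both epithelia, Kcne4 was called in opposite directions at the urogenital sinus and the skin, and Kcnd2 and Kcnd3, which encode the pores of the transient A-type current, were higher in UGM. The window listed for Kcnk1 lies within the gene and is not shown. Capitals mark GGGCGG (the GC box), TATAAA (the TATA box) or CACCTG (an E-box of the kind bound by Snai and Zeb repressors), or their reverse complements.
Kcnj15, chr16:95257308-95257607, plus strand: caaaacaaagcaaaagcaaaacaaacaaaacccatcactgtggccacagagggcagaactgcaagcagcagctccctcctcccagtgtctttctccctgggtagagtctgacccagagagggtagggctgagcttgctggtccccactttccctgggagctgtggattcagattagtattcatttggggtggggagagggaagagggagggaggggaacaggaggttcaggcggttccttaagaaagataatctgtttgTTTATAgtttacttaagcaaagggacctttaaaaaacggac
Kcne4, chr1:78816661-78816960, plus strand: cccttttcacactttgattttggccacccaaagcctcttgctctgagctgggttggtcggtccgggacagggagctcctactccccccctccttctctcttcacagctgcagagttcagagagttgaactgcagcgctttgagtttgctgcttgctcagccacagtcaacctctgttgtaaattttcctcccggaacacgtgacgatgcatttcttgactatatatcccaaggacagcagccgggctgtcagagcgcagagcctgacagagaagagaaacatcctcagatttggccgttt
Kcnd2, chr6:21215096-21215395, plus strand: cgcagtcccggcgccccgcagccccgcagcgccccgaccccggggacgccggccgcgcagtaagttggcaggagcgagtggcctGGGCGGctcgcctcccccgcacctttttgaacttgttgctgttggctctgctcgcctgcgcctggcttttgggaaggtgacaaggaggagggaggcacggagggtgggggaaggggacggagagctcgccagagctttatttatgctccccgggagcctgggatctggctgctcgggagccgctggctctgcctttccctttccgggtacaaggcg
Kcnd3, chr3:105451640-105451939, plus strand: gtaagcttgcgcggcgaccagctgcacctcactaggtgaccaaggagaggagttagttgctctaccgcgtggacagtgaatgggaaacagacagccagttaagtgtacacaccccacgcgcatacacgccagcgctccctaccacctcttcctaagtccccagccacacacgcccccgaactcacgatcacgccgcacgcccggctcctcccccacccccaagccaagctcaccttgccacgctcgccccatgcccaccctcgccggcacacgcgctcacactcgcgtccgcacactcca
The Kcnj15 window held 1 TATAAA, as its reverse complement and after the gene start. The Kcnd2 window held 1 GGGCGG, and the Kcne4 and Kcnd3 windows held none of the 3 motifs. The Kcnd2 and Kcnd3 windows were rich in CG dinucleotides, with 26 and 25, against 9 in Kcne4, 2 in Kcnj15 and a median of 7 over all 32851 RefSeq promoter windows. Over the 126 windows of the 91 channel genes found in that table, GGGCGG on either strand stood in 45.2%, against 35.7% of all windows, and TATAAA in 5.56% against 13.6%. CACCTG stood in 23.0% of the channel windows and in 20.2% of all windows, and the 9 letters TTCAGCACC, the left arm of the RE1 element, in 0 of 126 and in 0.371% of all. These are counts of letters in a short window and say nothing about binding.

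The channel genes were far more often higher in UGM than in UGE. Of 115 tested, 36 were higher in UGM and 3 in UGE, 33.9% in all, whereas 16.8% of the 17360 tested genes were called in this comparison, 10% of them higher in UGM and 6.75% higher in UGE. Their median difference, UGE minus UGM, was -0.27 against 0.02 for all genes. In skin 15 channel genes were higher in dermis and 3 in epidermis, 15.7% of those tested and close to the 16.9% of all genes (11.1% higher in dermis and 5.84% in epidermis). Between the epithelia 9 were higher in UGE and 6 in epidermis (13%, against 14.4% of all genes, of which 8.28% and 6.12%), and between the mesenchymes 24 were higher in UGM and 6 in dermis (26.1%, against 13.8%, of which 6.77% and 7%). UGM had the highest mean of the 4 tissues for 54 of the 115 genes, 47.0% against 22.8% of all genes. Every UGM sample lay above every other sample for 28 channel genes (24.3%), against 7.62% of all genes. The same held in UGE for 2 channel genes (Kcnk1 and Kcnk5), in epidermis for 5 (Kcna1, Kcnj15, Kcnk6, Kcnk7 and Scn4b) and in dermis for 5 (Cacng1, Kcne3, Kcng2, Kcnj8 and Kcns3), where the shares of all genes were 5.02%, 5.97% and 6.09%. Scn4b, Kcne3, Kcng2 and Kcns3 are named here after their values were seen. In all 48 genes were called in at least 1 comparison and 67 in none, and 19 never rose above an intensity of 50. Each of the 4 comparisons shares 1 group of samples with each of 2 others.

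**Figure D1:**
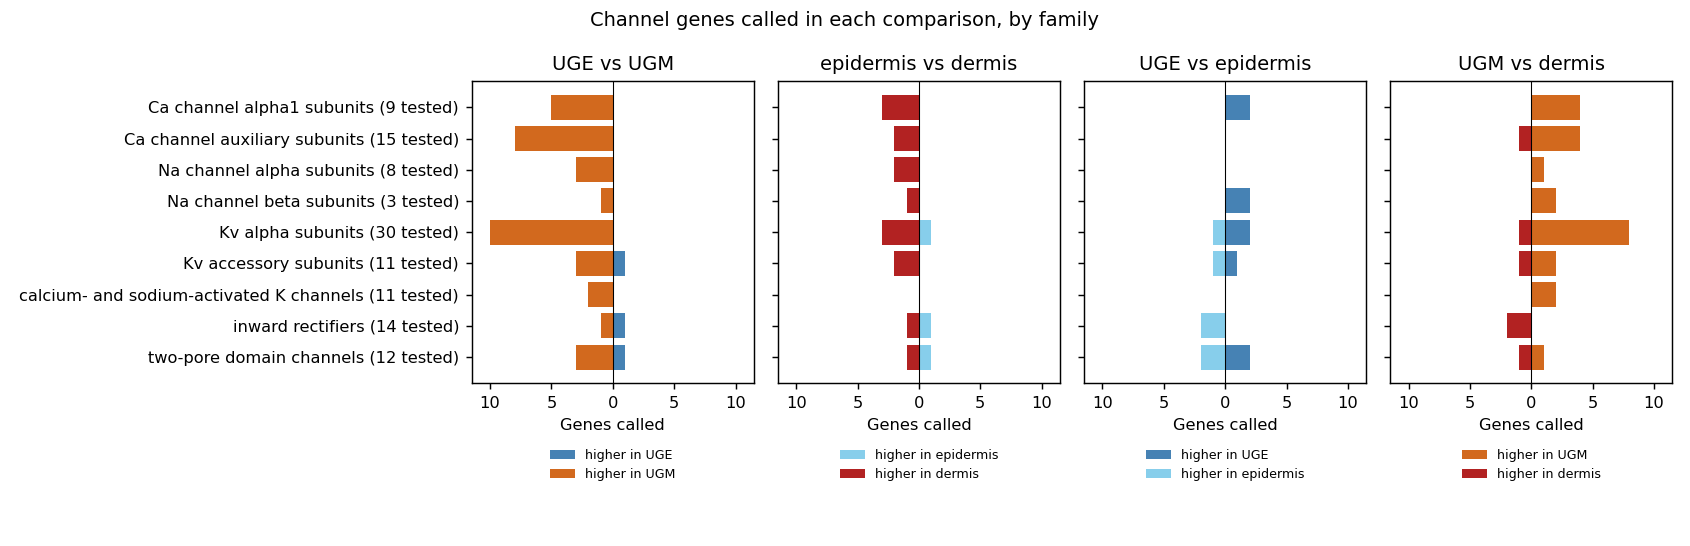
Number of channel genes called in each comparison (x axis, genes) by channel family (y axis, with the number of genes tested). Bars to the right of 0 count genes higher in the first tissue named and bars to the left those higher in the second. In UGE vs UGM 36 genes fall to the UGM side and 3 to the UGE side.

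The pore-forming alpha1 subunits of calcium channels were higher in UGM than UGE for 5 of 9 genes (55.6%, against 10% of all genes) and in UGE for none. Cacna1c, the L-type pore of heart and smooth muscle, measured 8.25, 8.32, 7.99, 7.82 and 7.90 in UGM and a lowest, median and highest of 5.40, 5.86 and 6.14 in UGE. In dermis it stood at 7.19, 7.84, 8.00 and 7.56, and in epidermis at 6.59, 6.04, 6.52 and 6.14. Both mesenchymes therefore lay wholly above both epithelia, by -2.24 ± 0.14 (SE, adjusted p = 7.26e-08) for UGE minus UGM and by -1.32 ± 0.19 (adjusted p = 0.000508) for epidermis minus dermis. Its other probe set gave -2.26 and -1.45. Cacna1d, the second widespread L-type pore, was set apart by UGM alone, at 8.63, 8.30, 8.51, 8.13 and 8.73 there. Its highest value anywhere else was 7.01, in UGE replicate 2, and its difference was -2.28 ± 0.24 (adjusted p = 1.02e-05). A dimmer probe set of Cacna1d showed no such difference (-0.06).

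The T-type pores Cacna1g and Cacna1h, which open near the resting potential, were both higher in both mesenchymes. Cacna1g was at 9.14, 9.03, 9.02, 9.06 and 9.10 in UGM and at 8.80, 9.25, 9.45 and 8.93 in dermis. In epidermis it was at 7.18, 6.68, 6.90 and 6.37, and in UGE it ran from 6.41 over a median of 6.65 to 8.09. UGE replicates 2 and 3 gave its 2 highest UGE values, 7.81 and 8.09. The differences were -2.05 ± 0.29 (adjusted p = 0.000141) and -2.32 ± 0.19 (adjusted p = 1.91e-05), and its 2 mesenchymes differed by -0.04 ± 0.29. For Cacna1h the same differences were -2.32 ± 0.26 and -1.45 ± 0.12, and UGM was higher than dermis by 2.01 ± 0.24 (adjusted p = 2.44e-06). Cacna1b, the N-type pore of nerve endings, differed more between the sites than between the compartments. It measured 7.87, 8.08 and 8.60 (lowest, median, highest) in UGE and 8.81, 8.42, 8.87, 8.77 and 8.61 in UGM, against 5.80, 6.25, 5.86 and 6.02 in epidermis and 6.47, 6.36, 6.50 and 6.53 in dermis. Both urogenital tissues lay above all skin samples, by 2.16 ± 0.13 (adjusted p = 1.68e-10) for UGE minus epidermis and 2.24 ± 0.14 (adjusted p = 1.92e-10) for UGM minus dermis. Between compartments it stayed under the fold limit, at -0.55 ± 0.13 (adjusted p = 0.00648) for UGE minus UGM and -0.48 ± 0.12 for epidermis minus dermis, while 2 of its 3 other probe sets were called lower in UGE than UGM (-1.12 and -1.20).

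Of the 15 auxiliary calcium channel subunits, 8 were higher in UGM than UGE (53.3%, against 10% of all genes), and none in UGE. They were the alpha2delta subunits Cacna2d1, Cacna2d2 and Cacna2d3, the beta subunits Cacnb1 and Cacnb2, and the gamma subunits Cacng4, Cacng5 and Cacng8. Cacng4, Cacng5 and Cacng8 carry the gamma subunit name but are known mainly as partners of AMPA-type glutamate receptors. Cacng8 measured 8.09, 8.32, 8.44, 8.77 and 8.89 in UGM and 4.60, 4.76 and 6.51 (lowest, median, highest) in UGE, where replicates 2 and 3 were both at 6.51. In dermis it was at 5.22, 5.80, 5.22 and 5.44 and in epidermis at 4.71, 5.05, 5.05 and 4.45. UGM stood apart from all 3 other tissues, by -3.19 ± 0.39 (adjusted p = 3.49e-05) from UGE and by 3.08 ± 0.36 (adjusted p = 1.89e-06) from dermis. Without UGE replicates 2 and 3 the first of these was -3.80. A dimmer probe set gave 0.06 for UGE minus UGM. Cacng4 gave -2.85 ± 0.36 and 2.64 ± 0.33 for the same comparisons.

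The auxiliary subunits Cacna2d1 and Cacna2d3 had similar differences at both sites, for Cacna2d1 -1.52 ± 0.20 in the urogenital sinus and -1.34 ± 0.12 in skin. Cacna2d3 measured 7.45, 7.30, 7.28, 7.41 and 7.21 in UGM and 7.32, 8.37, 7.90 and 7.55 in dermis. In UGE it ran from 4.58 over 4.79 to 5.18, and in epidermis it was at 5.43, 4.93, 5.69 and 4.94. The epithelia and mesenchymes did not overlap, with -2.50 ± 0.12 (adjusted p = 8.91e-09) in the urogenital sinus, -2.54 ± 0.25 (adjusted p = 4.36e-05) in skin and 0.04 ± 0.27 for the difference between those 2 differences. Cacng1, the gamma subunit of skeletal muscle, was the only calcium channel gene with every dermis sample above all other samples, at 5.86, 5.55, 5.44 and 6.07 against 4.36 to 4.72 in UGM (-1.22 ± 0.12 for UGM minus dermis, adjusted p = 2.36e-07). The median of the skeletal muscle marker list lay at 9.56 to 10.2 in dermis and at 5.86 to 7.12 in UGM, and its part in the Cacng1 difference was not tested.

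Sodium channel genes gave the largest difference of all channel genes between UGE and UGM. Scn3b, a beta subunit of neuronal and cardiac sodium channels, measured 11.30, 10.68, 11.04, 10.92 and 11.30 in UGM and 5.65, 6.31 and 7.12 (lowest, median, highest) in UGE. Dermis held it at 7.24, 7.33, 7.20 and 7.35 and epidermis at 4.55, 5.14, 4.89 and 5.50. No UGM sample came within 3 log2 units of any other sample. The UGM level was 26.0-fold that of UGE (-4.70 ± 0.26, adjusted p = 3.32e-08) and 13.6-fold that of dermis (3.77 ± 0.26, adjusted p = 1.35e-09). The skin difference was -2.26 ± 0.18 (adjusted p = 1.42e-05). Only the brightest of its 2 probe sets was called, and the dimmer gave -0.59 and -0.07 for the 2 sites. Scn2b, another beta subunit, showed no compartment difference in the urogenital sinus (0.03 ± 0.20) but was higher in UGE than epidermis by 2.51 ± 0.23 (adjusted p = 5.47e-08) and in UGM than dermis by 1.55 ± 0.24 (adjusted p = 4.25e-05).

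Among the 8 sodium channel alpha subunits, Scn3a, Scn7a and Scn9a were higher in UGM than UGE (37.5%, against 10% of all genes). Scn3a, a pore of embryonic neurons, was at 7.46, 6.73, 7.18, 6.91 and 6.98 in UGM and at 3.52, 3.78 and 3.92 in UGE, the latter under the lower quartile of the arrays. In dermis it was at 4.48, 4.73, 4.42 and 5.11 and in epidermis at 3.82, 3.53, 3.54 and 3.73. The difference of -3.31 ± 0.13 (adjusted p = 1.53e-09) is thus between a measurable level and one near the bottom of the scale, and its dimmer probe set gave 0.14. Scn7a, a sodium-sensing relative of the voltage-gated pores, was higher in both mesenchymes by its brightest probe set alone (-1.79 ± 0.15 and -1.33 ± 0.19), and its other probe set gave 0.04 and 0.32. Both calls were lost with the mean of its probe sets (-0.88 and -0.51) and with 50 added before log2 (-0.70 and -0.52). Scn9a, a pore of peripheral sensory and sympathetic neurons, gave only -1.02 ± 0.11 by its brightest probe set. Its 3 other probe sets gave -3.22, -2.81 and -1.61, so the choice of the brightest probe set understates it. Its call was lost without UGE replicate 4 (-0.96), UGE replicate 6 (-0.99), UGM replicate 3 (-0.98) or UGM replicate 4 (-0.97).

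The 30 tested Kv alpha subunits held 10 genes higher in UGM than UGE (33.3%, against 10% of all genes) and none higher in UGE. They were Kcna5, Kcna6, Kcnc2, Kcnd2, Kcnd3, Kcng1, Kcnh1, Kcnh2, Kcnq3 and Kcnq5. Kcnd2 was at 9.80, 9.77, 8.86, 9.30 and 9.00 in UGM and at 5.37, 5.83 and 6.70 (lowest, median, highest) in UGE. It was at 5.69, 6.15, 6.81 and 6.87 in epidermis and at 5.39, 5.80, 6.20 and 5.54 in dermis, 2 groups that overlapped. UGM lay 11.1-fold over UGE (-3.47 ± 0.25, adjusted p = 2.76e-07) and above dermis by 3.61 ± 0.29 (adjusted p = 8.86e-09), and all 3 of its probe sets were called in UGE against UGM. Kcnd3 was at 9.00, 9.02, 8.69, 9.12 and 8.58 in UGM, at 5.13, 5.35 and 6.09 in UGE, at 6.03, 6.76, 6.98 and 6.32 in dermis and at 5.40, 5.26, 5.45 and 5.65 in epidermis. It was therefore higher in both mesenchymes, by -3.34 ± 0.19 (adjusted p = 3.99e-08) and -1.09 ± 0.20 (adjusted p = 0.00185). Its 2 dimmer probe sets were not called and showed at most -0.54 in that direction. In the other direction they reached 0.25 in the urogenital sinus and 0.35 in skin.

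Kcnc2, a fast delayed rectifier of rapidly firing neurons, was near the bottom of the scale everywhere but in UGM. Its UGM values were 7.61, 7.51, 7.46, 7.59 and 7.36, while UGE ran from 4.32 over 4.52 to 5.54, epidermis was at 4.34, 4.24, 4.25 and 4.07 and dermis at 4.25, 4.27, 4.50 and 4.15. UGE minus UGM was -2.81 ± 0.19 (adjusted p = 1.62e-07), and epidermis minus dermis was -0.07 ± 0.11. Kcnq3, a subunit of the neuronal M-current, behaved alike, at 8.10, 8.22, 8.30, 8.03 and 8.14 in UGM and between 5.08 and 5.83 in the 14 samples of the other tissues (-2.75 ± 0.09, adjusted p = 5.08e-10). Kcnh2, the pore of the rapid delayed rectifier of the heart, was higher in UGM by -2.35 ± 0.16 than in UGE and by 2.81 ± 0.16 than in dermis. Kcnq5 was uneven within UGM, at 7.34, 5.88, 7.73, 7.33 and 5.94, and all 5 values still exceeded the highest value elsewhere, 5.49.

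Kcna1 and Kcna5, of the Shaker group of Kv pores, were patterned in skin. Kcna1, which limits firing along axons, was at 8.25, 8.61, 8.88 and 9.26 in epidermis and at 7.73, 6.60, 6.37 and 7.16 in dermis, with 5.30, 5.38 and 5.72 (lowest, median, highest) in UGE and 5.74, 6.06, 6.03, 5.96 and 5.48 in UGM. Every epidermis sample lay above every other sample, by 1.79 ± 0.30 over dermis (adjusted p = 0.00125) and by -3.28 ± 0.22 for UGE minus epidermis (adjusted p = 9.18e-10). Of its 4 probe sets 3 were called in epidermis against dermis. Dermis replicate 1, which held its highest dermis value, also had the highest epithelial marker median of the dermis, 10.9, and without that sample UGM minus dermis for Kcna1 went from -1.11 to -0.86 and was no longer called. Kcna5, a delayed rectifier of atrium and vessels, was lowest in epidermis at 6.26, 5.46, 5.57 and 6.34. It lay at 8.08, 8.30, 8.07 and 8.68 in dermis, at 7.46, 7.77 and 8.27 in UGE and at 9.08, 9.27, 8.50, 8.59 and 9.07 in UGM. The skin difference was -2.38 ± 0.23 (adjusted p = 3.99e-05) and that of the urogenital sinus -1.04 ± 0.19 (adjusted p = 0.000893).

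**Figure D2:**
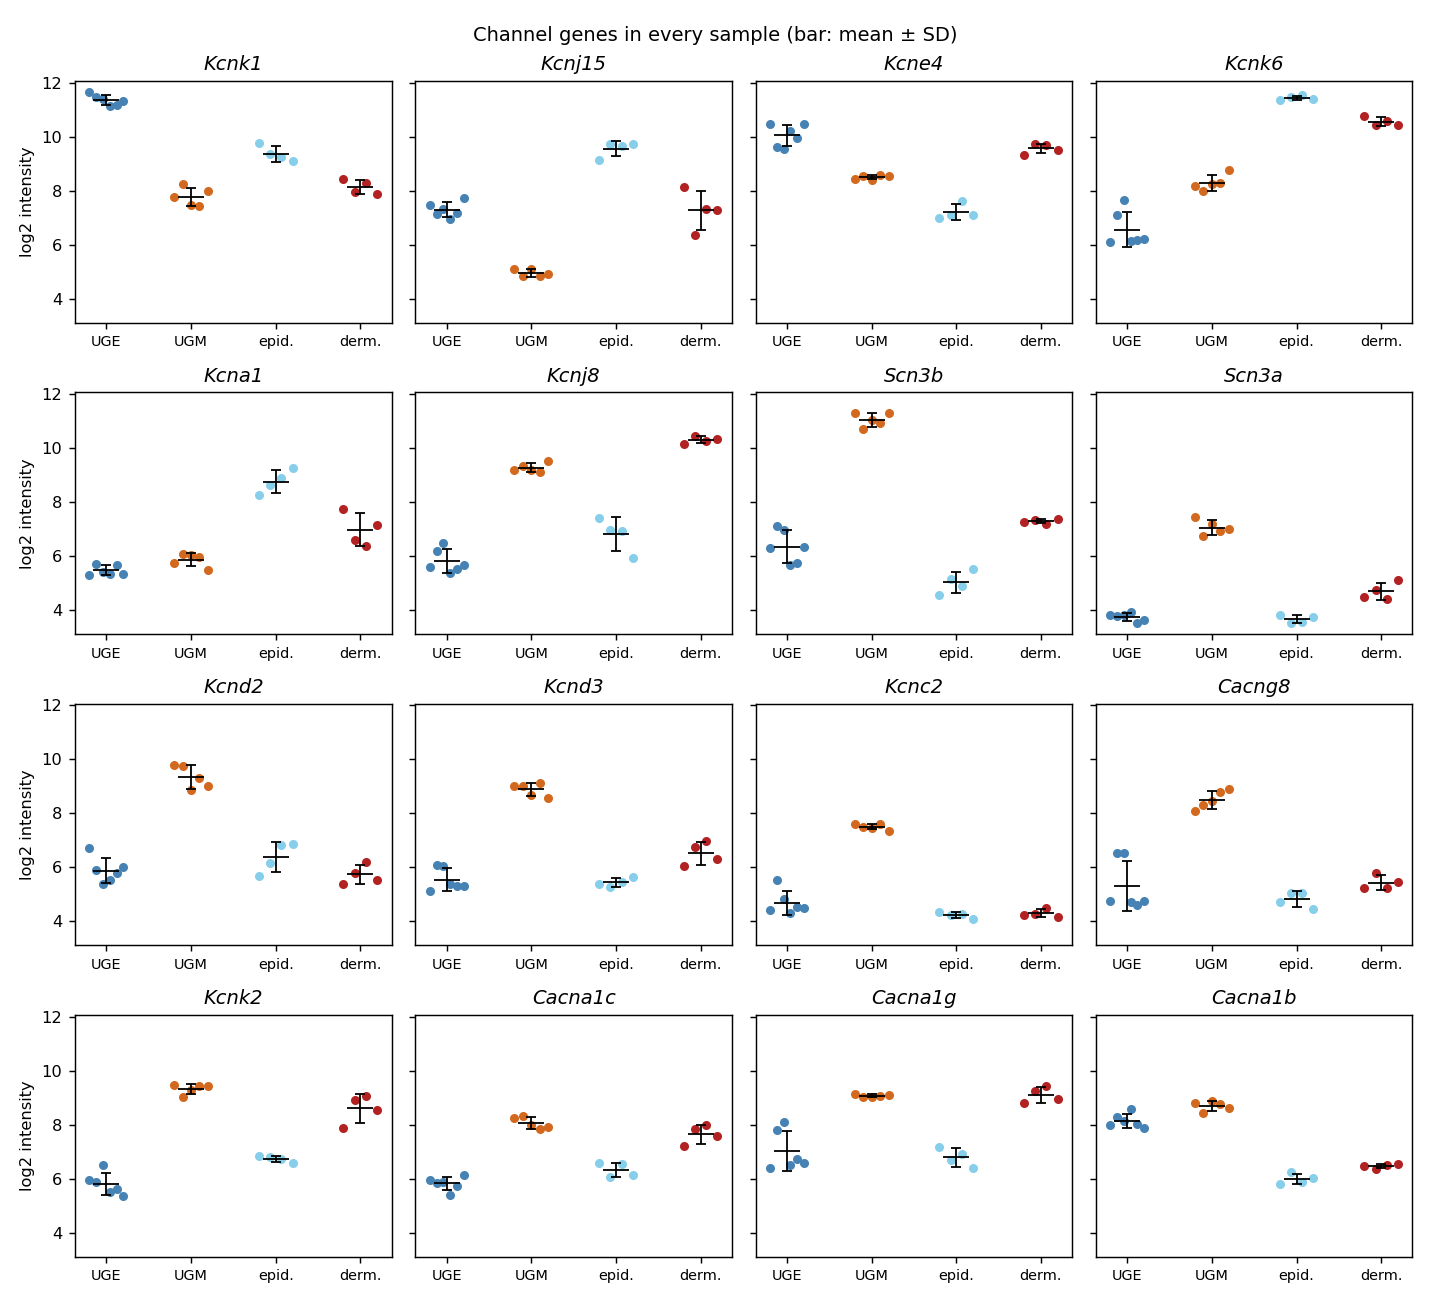
Log2 intensity (y axis) of 16 channel genes in every sample of the 4 tissues (x axis; epid., epidermis; derm., dermis), with 1 point per sample and bars for mean ± SD. UGM stands alone at the top for Scn3b (10.68 to 11.30), Kcnd2 and Kcnc2, while Kcnk1 is highest in UGE (11.14 to 11.65) and Kcnk6 in epidermis (11.37 to 11.54).

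Of the 11 Kv accessory subunits, 3 were higher in UGM (Kcnab1, Kcne1l and Kcnip4) and 1 in UGE. These were 36.4% of the family, against 16.8% of all genes. Kcnab1, a cytoplasmic beta subunit of Shaker channels, was at 9.46, 9.38, 9.39, 9.38 and 9.26 in UGM and at 6.14, 6.37 and 7.00 in UGE, with 7.00, 6.41, 6.57 and 6.35 in epidermis and 7.00, 7.29, 7.20 and 7.00 in dermis (-2.86 ± 0.16 for UGE minus UGM, adjusted p = 3.18e-08). The gene higher in UGE was Kcne4, a single-pass subunit known to inhibit several Kv pores. It measured 9.53, 10.08 and 10.48 (lowest, median, highest) in UGE and 8.45, 8.54, 8.40, 8.56 and 8.53 in UGM, and in skin 6.97, 7.10, 7.62 and 7.10 in epidermis and 9.33, 9.72, 9.69 and 9.50 in dermis. It was thus higher in the epithelium of the urogenital sinus (1.55 ± 0.17, adjusted p = 1.5e-05) and in the mesenchyme of the skin (-2.36 ± 0.16, adjusted p = 6.37e-06), with no overlap in either pair. Of the 115 genes Kcne4 alone was called in opposite directions at the 2 sites, as were 0.495% of all genes. Kcnip1, a calcium sensor that binds Kcnd pores, was higher in epidermis than UGE (-1.14 ± 0.11, adjusted p = 1.22e-07), at 7.77, 7.86, 7.39 and 7.81 against at most 6.69.

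The calcium- and sodium-activated potassium channels had 2 of 11 genes higher in UGM than UGE (18.2%, against 10% of all genes) and none called in skin. Kcnma1, the large-conductance BK pore of smooth muscle and neurons, was at 7.76, 7.78, 7.33, 7.63 and 7.38 in UGM and at 6.32, 6.52 and 6.65 in UGE by its brightest probe set (-1.07 ± 0.11, adjusted p = 7.07e-06). All 3 other tissues overlapped at 6.32 to 6.81. Its 4 dimmer probe sets gave -1.09 to -2.38, and against dermis up to 4.12 where the brightest gave 0.92 ± 0.11, so here too the brightest probe set showed the smallest change. Kcnt2, a sodium-activated channel, was at 6.88, 6.51, 6.74, 6.66 and 5.57 in UGM and at 3.59, 5.04 and 5.71 in UGE, groups that overlapped (-1.67 ± 0.42, adjusted p = 0.00813). Kcnmb2, a beta subunit of the BK channel, was higher in UGM than dermis by 1.03 ± 0.17, and dropped under the 2-fold limit without UGM replicate 1 (0.97), UGM replicate 2 (0.9997) or dermis replicate 1 (0.99).

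Among the 14 tested inward rectifiers, 2 genes separated the compartments at both sites and in opposite senses. They were 14.3% of the family, near the shares of all genes called in the urogenital sinus (16.8%) and in skin (16.9%). Kcnj8, a pore of the ATP-sensitive channel of vascular smooth muscle and pericytes, was at 9.17, 9.34, 9.17, 9.12 and 9.53 in UGM and at 10.14, 10.45, 10.26 and 10.33 in dermis. It was at 5.37, 5.63 and 6.50 (lowest, median, highest) in UGE and at 7.41, 6.95, 6.94 and 5.92 in epidermis. Mesenchyme exceeded epithelium 11.0-fold in the urogenital sinus (-3.46 ± 0.19, adjusted p = 2.94e-08) and 11.2-fold in skin (-3.49 ± 0.27, adjusted p = 1.18e-05), and those differences differed from each other by 0.03 ± 0.34. The endothelial marker list had medians of 9.02 to 9.56 in dermis, 7.94 to 8.59 in UGM and 4.86 to 5.74 in the epithelia, so that like Kcnj8 it was higher in dermis than UGM. The smooth muscle list ran the other way between the mesenchymes, at 9.42 to 10.0 in UGM and 7.25 to 7.75 in dermis. The part of either in the Kcnj8 values was not tested.

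Kcnj15, an inward rectifier of transporting epithelia, was at 9.12, 9.71, 9.65 and 9.72 in epidermis and at 8.12, 6.37, 7.32 and 7.28 in dermis. UGE held it at 6.93, 7.25 and 7.71, and UGM at 5.08, 4.83, 5.10, 4.82 and 4.93. Epithelium exceeded mesenchyme by 2.34 ± 0.13 in the urogenital sinus (adjusted p = 3.51e-08) and by 2.28 ± 0.31 in skin (adjusted p = 0.000358), while both skin tissues lay above their urogenital counterparts (-2.26 ± 0.23 and -2.32 ± 0.24). Epidermal differentiation markers had medians of 9.50 to 12.2 in dermis and 4.41 to 4.57 in UGM, with 8 of 8 called higher in dermis. Among the dermis samples, replicate 1 was highest and replicate 2 lowest for Kcnj15, for that list and for the epithelial list (10.9 and 9.11), and their part in the dermis level was not tested. UGE and dermis overlapped for Kcnj15, and of 3 probe sets 2 were called at both sites in the same direction. Kcnj11, a close relative of Kcnj8 named here after its values were seen, was called in no comparison and lay between 9.85 and 10.81 in all 19 samples.

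The 12 two-pore domain channels, which pass background potassium current, included called genes in every comparison. Kcnk1 was the channel gene with the greatest excess in UGE over UGM. It measured 11.14, 11.37 and 11.65 (lowest, median, highest) in UGE, 7.77, 8.23, 7.47, 7.43 and 7.97 in UGM, 9.75, 9.34, 9.25 and 9.08 in epidermis and 8.44, 7.93, 8.28 and 7.88 in dermis. The epithelium exceeded the mesenchyme at both sites, 12-fold in the urogenital sinus (3.59 ± 0.15, adjusted p = 3.21e-09) and by 1.22 ± 0.18 in skin (adjusted p = 0.000468). A second probe set gave 2.74 and 0.61. Kcnk5, an alkaline-activated channel of transporting epithelia, was also highest in UGE, with 7.60, 7.84 and 8.16 against at most 7.38 elsewhere, and it passed the fold limit against epidermis (1.22 ± 0.17, adjusted p = 1.1e-05) but not against UGM (0.81 ± 0.14).

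Kcnk2, a channel opened by stretch and lipids, was at 9.48, 9.03, 9.29, 9.42 and 9.42 in UGM and at 7.87, 8.93, 9.05 and 8.55 in dermis. It was at 5.37, 5.76 and 6.51 in UGE and at 6.83, 6.79, 6.72 and 6.56 in epidermis, so mesenchyme lay above epithelium at both sites (-3.52 ± 0.18, adjusted p = 1.74e-08, and -1.87 ± 0.23, adjusted p = 0.000179). Kcnk6 showed the widest difference of any channel gene between the epithelia. It was at 11.37, 11.45, 11.54 and 11.39 in epidermis, 10.76, 10.41, 10.58 and 10.44 in dermis and 8.16, 8.00, 8.24, 8.27 and 8.77 in UGM, and in UGE it ran from 6.08 over 6.19 to 7.67. Epidermis exceeded UGE 29.5-fold (-4.88 ± 0.25, adjusted p = 1.83e-11), and dermis exceeded UGM by -2.26 ± 0.26 (adjusted p = 1.32e-06). UGE replicates 2 and 3 gave its 2 highest UGE values, 7.08 and 7.67, and without them UGE minus epidermis was -5.29. Among the dermis samples, replicate 1 was highest and replicate 2 lowest for Kcnk6, as for the epithelial marker list (10.9 and 9.11). The part of epithelial cells in the Kcnk6 level of dermis was not tested. Kcnk7, of the same branch, was likewise highest in epidermis (-1.12 ± 0.13 for UGE minus epidermis).

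At both sites together, 14 channel genes were higher in mesenchyme (12.2% of 115, against 5.77% of all genes) and 2 in epithelium (3.01% of all genes). The 14 were Cacna1c, Cacna1g, Cacna1h, Cacna2d1, Cacna2d3, Kcna5, Kcna6, Kcnd3, Kcne1l, Kcnj8, Kcnk2, Scn3a, Scn3b and Scn7a, a set that holds pores and auxiliary subunits of all 3 ion selectivities. A further 22 were called higher in UGM and not called in skin, and in skin alone only Kcna1 was called. Whether the compartment difference itself differed between the sites was tested as UGE minus UGM, less epidermis minus dermis. This test called 28 channel genes (24.3%, against 12.9% of all genes), with 24 below 0, against 5.41% of all genes, and 4 above, against 7.53%. Of the 22 genes called higher in UGM and not called in skin it called 18, all below 0. That sign was favoured by how the 22 were chosen, from the same differences that the test compares. The test did not call Cacna2d2, Cacnb2, Kcnt2 and Scn9a. Of the 14 higher in both mesenchymes it called 5. The marker lists were also shifted in this test. The mesenchymal list had a median of -1.496, with 0 of its 11 genes called. Its median difference was -4.174 in the urogenital sinus and -2.779 in skin. The epithelial list had a median of 3.721, with 11 of 12 genes called above 0. What part the purity of the separated layers had in the channel counts was not tested.

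The 4 genes above 0 were Kcne4 (3.91 ± 0.25, adjusted p = 1.39e-09), Kcnk1 (2.37 ± 0.24, adjusted p = 5.98e-07), Kcnk5 (1.34 ± 0.24, adjusted p = 0.000453) and Kcna5 (1.33 ± 0.31, adjusted p = 0.00417). Below 0 the largest were Kcnd2 at -4.12 ± 0.40 (adjusted p = 2.64e-07), Kcnc2 at -2.75 ± 0.25 (adjusted p = 1.04e-07) and Kcnk6 at -2.62 ± 0.36 (adjusted p = 2.37e-05). Cacng8 followed at -2.59 ± 0.51, Kcnq3 at -2.51 ± 0.15 and Scn3b at -2.44 ± 0.36. Kcnk6 was below 0 since it was higher in UGM than UGE (-1.73 ± 0.29) and, without passing the fold limit, higher in epidermis than dermis (0.89 ± 0.11). The Kcna5 call did not hold without dermis replicate 4 (1.20), epidermis replicate 2 (1.18) or epidermis replicate 3 (1.22).

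**Figure D3:**
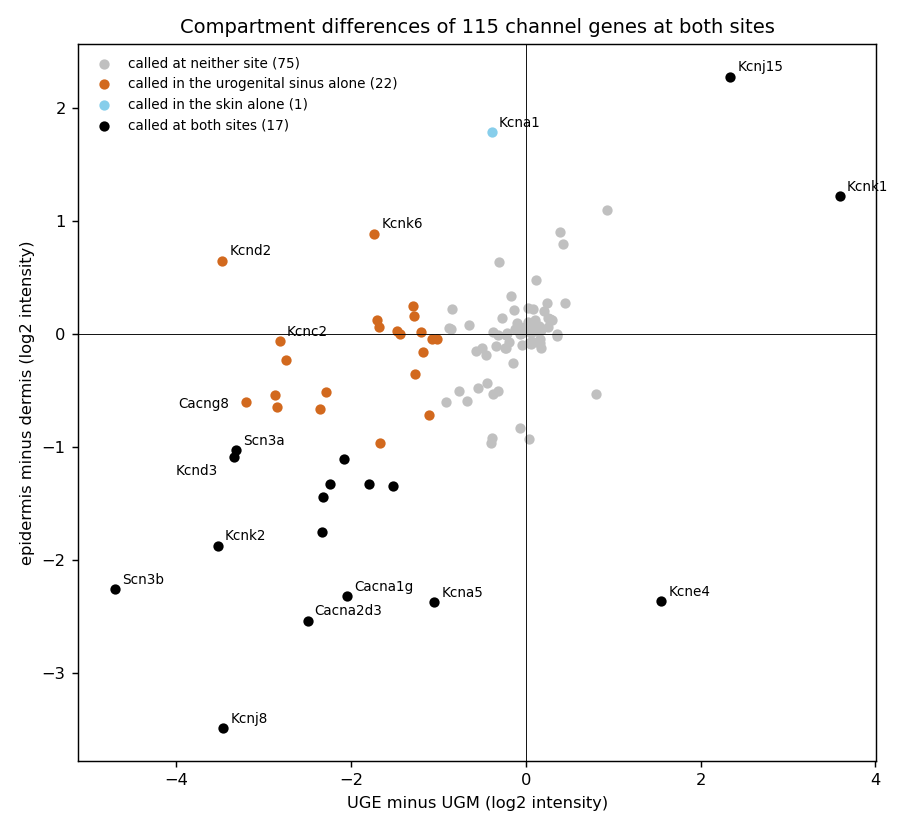
Difference of each of 115 channel genes between UGE and UGM (x axis, log2 intensity) and between epidermis and dermis (y axis, log2 intensity), 1 point per gene, with colour for the sites at which it was called. The 14 genes called at the lower left are higher in both mesenchymes, Kcnk1 and Kcnj15 at the upper right are higher in both epithelia, and Kcne4 stands alone at the lower right.

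Between the 2 epithelia, UGE was higher for Cacna1b, Cacna1h, Scn2b, Scn3b, Kcna5, Kcnh2, Kcne4, Kcnk1 and Kcnk5, and epidermis was higher for Kcna1, Kcnip1, Kcnj15, Kcnj8, Kcnk6 and Kcnk7. Of the 12 two-pore domain channels 2 were higher in UGE and 2 in epidermis, and of the 14 inward rectifiers 2 were higher in epidermis. Higher in UGE were 2 of 9 calcium channel alpha1 and 2 of 3 sodium channel beta subunits. None was called of 15 calcium channel auxiliary and 8 sodium channel alpha subunits. Of all genes 8.28% were higher in UGE and 6.12% in epidermis. Kcne4 differed 7.19-fold between them (2.85 ± 0.17, adjusted p = 1.91e-10). Scn3b passed at 1.33 ± 0.25 (adjusted p = 0.000343), and without UGE replicates 2 and 3 it fell under the fold limit (0.98). It also did so with 50 added before log2 (0.69) and with the mean of its probe sets (0.65). Between the 2 mesenchymes the 6 genes higher in dermis were Kcna1, Kcne4, Kcnj15, Kcnj8, Kcnk6 and Cacng1. Of the 24 higher in UGM, 21 were also higher in UGM than UGE, comparisons that share the UGM samples. Kcnj8 was near the limit (-1.03 ± 0.25), and lost its call without UGM replicate 4 (-0.99) or dermis replicate 2 (-0.98).

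**Figure D4:**
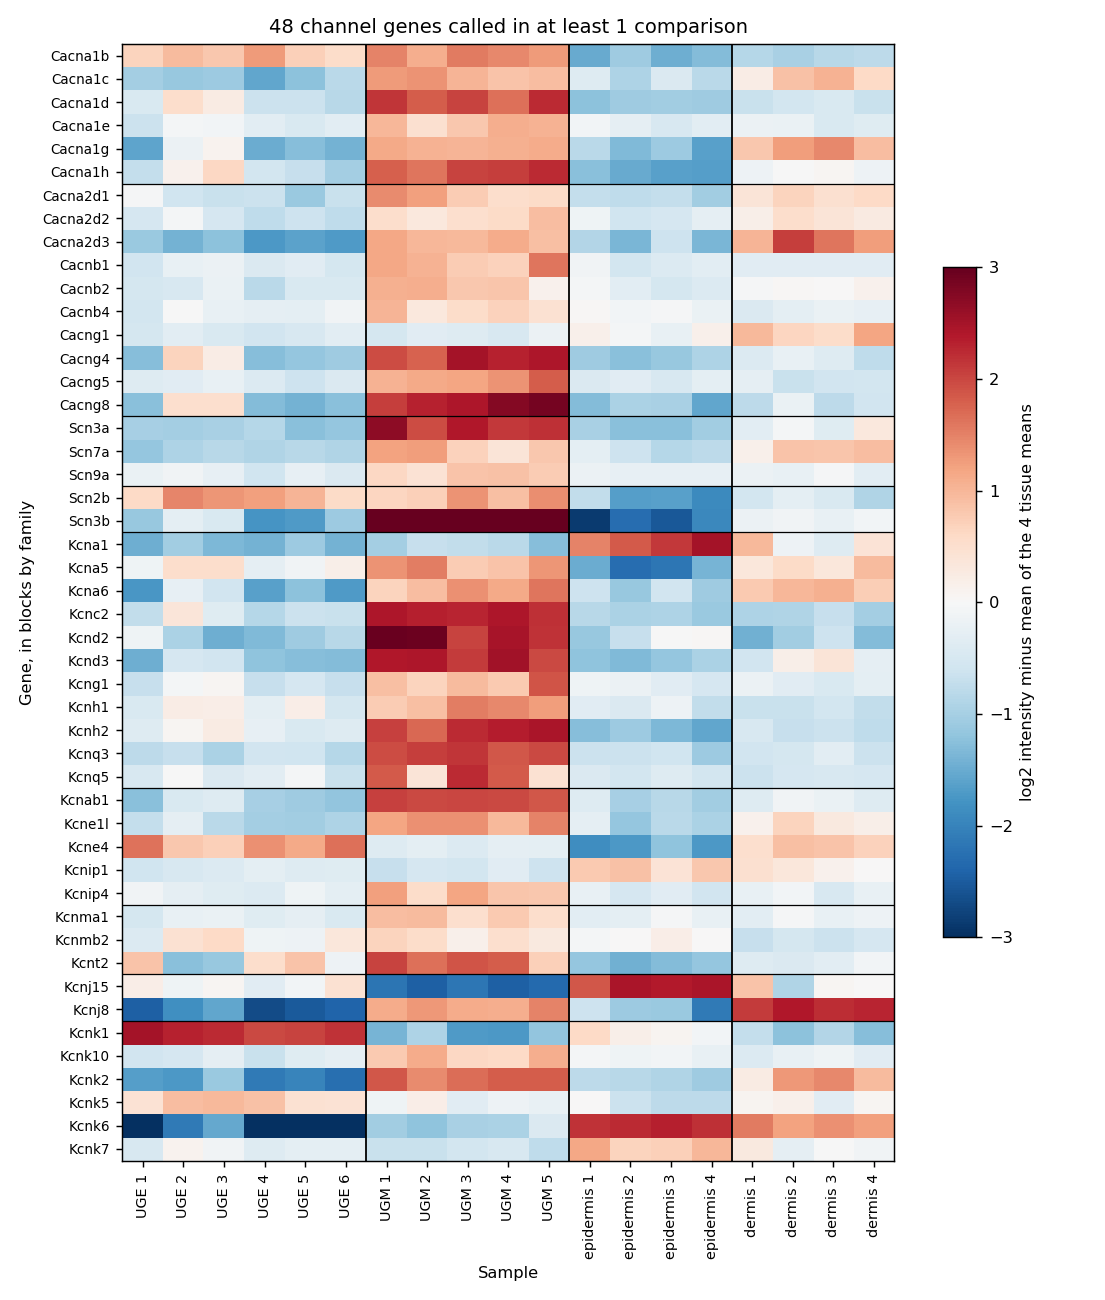
Log2 intensity less the mean of the 4 tissue means (colour, from -3 to 3) for the 48 channel genes called in at least 1 comparison (rows, in blocks by family) in the 19 samples (columns). The 5 UGM columns are red in most calcium, sodium and Kv rows, and Kcnk1, Kcne4, Kcnj15 and Kcnk6 run against that pattern.

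Markers of nerve, muscle and vessel differed between the same tissues. The median of 14 neuronal markers (such as Tubb3, Stmn2 and Snap25) lay at 10.2 to 11.1 in UGM, 5.96 to 7.18 in UGE, 5.41 to 5.89 in epidermis and 5.76 to 6.09 in dermis. All 14 were called higher in UGM than in UGE and than in dermis. The smooth muscle list had medians of 9.42 to 10.0 in UGM, 7.25 to 7.75 in dermis and 5.81 to 6.76 in the epithelia, with 6 of 8 genes higher in UGM than UGE. Schwann and neural crest markers were at 8.37 to 9.00 in UGM, 8.14 to 8.57 in dermis, 5.24 to 6.16 in UGE and 6.23 to 7.19 in epidermis. Of 7 tested, 6 were called higher in UGM than UGE and 1 higher in UGE, and only 1 was called higher in UGM than dermis. The part of these cell types in the channel genes that were higher in UGM was not tested.

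**Figure D5:**
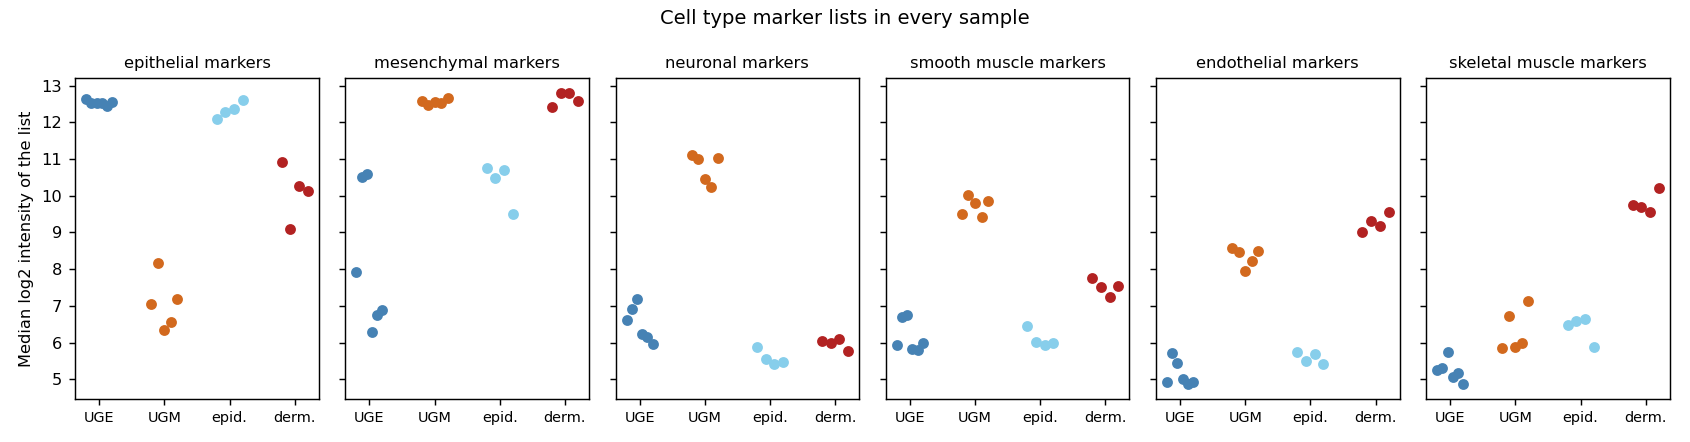
Median log2 intensity (y axis) of 6 cell type marker lists in every sample of the 4 tissues (x axis), 1 point per sample. The neuronal list reaches 10.2 to 11.1 in UGM and at most 7.18 elsewhere, and the mesenchymal list is high in UGE replicates 2 and 3.

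Partners of the channels were followed through a list of 32 auxiliary, anchoring and regulatory genes, of which 30 were tested. In UGE against UGM 8 were higher in UGM and 1 in UGE, and in skin 6 were higher in dermis and 1 in epidermis. Of all genes 10% and 6.75% were called in those directions in the urogenital sinus, and 11.1% and 5.84% in skin. Dpp10, a membrane partner of Kcnd pores, was at 9.14, 8.98, 9.38, 9.55 and 9.02 in UGM and between 4.96 and 6.49 in all other samples (-3.20 ± 0.19 for UGE minus UGM, adjusted p = 6.63e-08), the tissue in which Kcnd2 and Kcnd3 were highest. Abcc9, the sulphonylurea receptor subunit that forms channels with the Kcnj8 product, was at 9.32, 9.40, 8.73, 9.01 and 8.94 in UGM and at 9.03, 9.59, 9.57 and 9.49 in dermis. Its epithelial values were at most 6.93, with -2.99 ± 0.27 in the urogenital sinus and -2.65 ± 0.16 in skin. Fgf13, an intracellular factor that binds sodium channels, and Ank2, an ankyrin that anchors channels, were also higher in both mesenchymes (-2.02 ± 0.12 and -3.16 ± 0.28 for Fgf13, -3.20 ± 0.16 and -2.53 ± 0.25 for Ank2).

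The partner higher in UGE was Lrrc26, a gamma subunit that lets BK channels open without calcium. It lay at 8.24, 8.93 and 9.50 (lowest, median, highest) in UGE, at 5.46, 5.59, 5.69, 5.65 and 5.95 in UGM, at 6.20, 5.94, 6.35 and 6.52 in epidermis and at 5.95, 5.34, 5.57 and 5.99 in dermis, and no group overlapped UGE (3.25 ± 0.21, adjusted p = 1e-07). Its pore Kcnma1 was lower in UGE than UGM. Cntnap2, which clusters axonal Kv channels, and Lgi2, a secreted protein of the Lgi family, were called between the sites and not between the compartments. Cntnap2 was higher in UGE than epidermis by 3.36 ± 0.13 and in UGM than dermis by 3.23 ± 0.13, and Lgi2 by 4.21 ± 0.18 and 2.89 ± 0.19. For Lgi2 the compartment differences were 0.78 ± 0.09 in the urogenital sinus and -0.54 ± 0.26 in skin, and they differed from each other by 1.32 ± 0.26 (adjusted p = 0.000922).

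Other ion channels and pumps took mixed directions. Of 15 tested genes for epithelial sodium, chloride, HCN and leak channels, 3 were higher in UGE and 2 in UGM, and of 16 TRP channels 3 and 4. Of all genes 6.75% were called higher in UGE and 10% higher in UGM. The epithelial sodium channel subunits Scnn1b and Scnn1g were higher in UGE than UGM by 2.79 ± 0.14 and 3.96 ± 0.14, and Nalcn, a sodium leak channel of neurons, was lower by -3.57 ± 0.12 and in skin higher in epidermis (2.31 ± 0.29). In a list of 20 calcium release channels and pump genes, 5 were higher in UGE and 7 in UGM, among the latter the ryanodine receptors Ryr2 (-2.36 ± 0.17) and Ryr3 (-3.11 ± 0.16).

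The choice of probe set mattered for many genes. Of the 71 channel genes with at least 2 tested probe sets, the brightest was called in UGE against UGM for 28, and for 19 of those, such as Scn3b, Kcnab1, Kcnq3 and Cacna1h, it was the only probe set called. The 24 other probe sets of those 19 genes were dim, with a median level of 4.80 against 6.27 for the brightest ones, and 11 of the 24 moved in the same direction. In 4 further genes only another probe set was called, and these were Cacna1b, Scn1a, Scn2a and Scn8a. In none of the 5 comparisons were 2 probe sets of a gene called in opposite directions. Kcnq1ot1, an untranslated antisense transcript that met the rule by its letters, was called in no comparison by its brightest probe set (0.93 ± 0.25 and 1.10 ± 0.38 for the 2 sites), while 1 of its 6 probe sets was called higher in epidermis than dermis (1.11 ± 0.13). With the mean of all probe sets of a gene, the skin calls of Cacna1h (-0.83), Kcna6 (-0.43) and Kcnk1 (0.91) were lost beside those of Scn7a.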

How the data were processed

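RNA of 19 pools was hybridised to MOE430 2.0 arrays after 2-cycle labelling. The intensity values per probe set were deposited by the authors, already on a common scale between arrays. The submitters' processing notes name GCOS 1.4, and the methods add PLIER for signal estimates and MAS5 for calls of presence. The step that produced the table was not given in the sources used here, and presence calls were not used. Intensities from 7.40 to 33141 were taken to log2 with no further normalization. Arrays give no read depth, and the number of samples limits the precision.

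Removal of 64 controls and of dim features from the 45101 probe sets left 41549 probe sets brighter than 20 in some sample. These were tested 2-sided by lmFit and eBayes of limma 3.58.1 (R 4.3.3), with Benjamini-Hochberg adjustment over all of them. UGE against UGM and epidermis against dermis were each fitted in their own samples, as in the methods, and the other comparisons in 1 fit of all 4 groups. Of the probe sets 34945 had 1 gene symbol, 932 several and 9160 none. The call needed a change of over 2-fold with an adjusted p under 0.01. P-values measure the spread between these pools. The scripts were tested on simulated data.

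The channel genes, the lists and the marker genes were chosen with earlier results of these data known. Genes were named when called with the largest changes and no overlap between groups, up to 12 per direction for UGE against UGM and epidermis against dermis and up to 6 for the others, with up to 3 per family, up to 4 partners per comparison and direction, and genes called in opposite directions at the sites. Kcnq5, Scnn1b, Scnn1g, Nalcn, Ryr2 and Ryr3 were named outside this rule. Promoter windows are RefSeq's, for GRCm38.p6. Whether sample numbers mark pairs was not settled, and the main tests used no pairing. Deviations of same-numbered epidermis and dermis correlated at r of 0.343, 0.108, 0.264 and 0.168 over probe sets. For UGE and UGM r ran from -0.406 to 0.648. Epidermis replicates 1, 3 and 4 correlated best with the dermis sample of the same number, and epidermis replicate 2 with dermis replicate 3. UGE replicate 1 correlated best with UGM replicate 1, but UGE replicates 2, 3, 4 and 5 did so with UGM samples of another number. Alternatives were a filter on the median, no filter on dim values, 50 added before log2, quantile normalization, the mean of all probe sets of a gene, 1 fit of all groups, a replicate block, the methods' t-test and leaving out samples.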

Additional observations from a re-analysis of the deposited data

Results flagged for a closer look

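In 9 of 152 groups of samples examined for the named channel genes, 1 sample stood far from the rest of its group by Dixon's test, and chance alone does so in about 1 of 20 groups. In epidermis replicate 1, Cacna1d (5.25), Kcnj15 (9.12) and Kcnq1ot1 (7.46) were lowest and Scn9a (4.72) was highest. In epidermis replicate 4, Cacna2d1 (6.29) and Kcnq3 (5.08) were lowest. Kcnt2 was lowest in UGM replicate 5 (5.57). Scn7a was lowest in UGE replicate 1 (3.79) and in dermis replicate 1 (5.11).

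The interaction test asks whether the difference between epithelium and mesenchyme itself differed between the sites. Of the 28 channel genes it called, the 10 listed here were named for it, by size and up to 6 per direction. Other named genes, such as Kcnab1 (-2.32) and Kcnd3 (-2.25), were called by it too. As UGE minus UGM less epidermis minus dermis, Kcne4 was at 3.91, Kcnk1 at 2.37, Kcnk5 at 1.34 and Kcna5 at 1.33. Kcnd2 was at -4.12, Kcnc2 at -2.75, Kcnk6 at -2.62, Cacng8 at -2.59, Kcnq3 at -2.51 and Scn3b at -2.44. Site and separation method cannot be told apart in these values.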

How the results depend on the processing

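The number of channel genes called was 39 for UGE against UGM, 18 for epidermis against dermis, 15 for UGE against epidermis, 30 for UGM against dermis and 28 for the difference between sites. With 50 added before log2, which shrinks changes of dim genes, it fell to 24, 11, 8, 18 and 17 in that order. With a filter on the median, which left 67 channel genes tested, UGM against dermis gave 19 and the difference between sites 18. Leaving out 1 sample at a time gave 37 to 39, 16 to 21, 14 to 16, 28 to 32 and 24 to 31. With the replicate number as a block the counts were 36 for UGE against UGM and 19 for epidermis against dermis. That setting left out UGE replicate 6, which has no UGM sample of its number. Of the genes named only Scn9a lost its call (-0.99), the same value as without UGE replicate 6 alone. The other settings left every count within 1.5 times. Of 1347 recomputed values for 71 named results, 1299 kept their call, 48 lost it and 0 changed direction. Of the 48, 18 were with 50 added, 9 with the mean of all probe sets and 13 with 1 sample left out. The methods' t-test did not call Kcna1 in skin, Kcna1 in UGM against dermis, or Scn3b in UGE against epidermis. Without UGM replicate 2 and dermis replicate 1, Kcna1 (-0.91) and Kcnmb2 (0.96) were not called in UGM against dermis, and quantile normalization took away Scn9a. Genes near the lower quartile of the arrays have only a bound on how low they lie.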
